A study of Mus musculus with 12 samples.

Results

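The 10 genes described here encode smooth muscle actins and proteins of the actin-based contractile machinery: Acta2, Actg2, Tagln, Cnn1, Myl9, Tpm1, Tpm2, Cald1, Actn1 and Lmod1. They were picked by symbol from the 22753 genes of a count table of mouse embryonic stem cells, with results of these data already known. Smooth muscle contracts when myosin, whose regulatory light chain is phosphorylated by myosin light chain kinase, pulls on thin filaments of actin that carry tropomyosin, calponin and caldesmon. Many of these genes are also switched on in fibroblasts and myofibroblasts, and in smooth muscle several are classic targets of serum response factor (SRF), which binds a short element called the CArG box together with cofactors of the myocardin family. Embryonic stem cells are not contractile cells, and the genes are used in such cultures as markers of differentiation towards mesenchymal and smooth muscle lineages.

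RNA sequencing covered 12 libraries from clones 4 and 10, stem cell clones labelled Sphk1fl/fl Sphk2-/-, that is, with the sphingosine kinase gene Sphk1 floxed and its homologue Sphk2 deleted. After 48 hours in 6 uM 4-hydroxytamoxifen, cells were sorted by the fluorescence of Cre-GFP. GFP-positive cells are labelled Sphk1-/- Sphk2-/- and GFP-negative cells Sphk1fl/fl Sphk2-/-, with 3 libraries for each gate of each clone. All 4 groups share the labelled deletion of Sphk2, the tamoxifen, and a medium with serum and leukaemia inhibitory factor. Each line is a single clone, and nothing in the labels says that replicates were separate cultures, so the p-values below rest on the spread among libraries, part of which may be technical. Passage numbers ran from 11 to 20, with the libraries of replicate 1 at passages 11 and 12.

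Library totals ran from 12968916 counts, in clone 10 GFP-negative replicate 1, to 34258395 counts. That shallowest library stood apart, with a normalization factor of 0.83 where the others lay between 0.932 and 1.08. Sphk1 was detected in every library, at 0.701 to 3.01 CPM (read counts scaled to the total of the library) in GFP-positive cells and 0.694 to 4.30 CPM in GFP-negative cells, and GFP-positive cells had less in 4 of 6 pairs, a pair being the libraries of both gates with a common clone and replicate number. Reads of Sphk2 were also present in every library, at 1.89 to 8.13 CPM in GFP-positive cells and 1.19 to 8.34 CPM in GFP-negative cells. The deleted parts of both genes are not stated in the labels, so total levels do not check them. Mitochondrial genes took a larger share of the counts in GFP-positive cells in all 6 pairs, at 0.849% to 2.32% in GFP-positive cells against 0.143% to 2.11% in GFP-negative cells, and its part in the results was not tested. The stem cell genes Pou5f1 (944 to 2940 CPM) and Nanog (314 to 1020 CPM) were high in every library. In contrast, Myh11, the heavy chain of smooth muscle myosin, lay between 0.0771 and 2.97 CPM, and Myocd, the SRF cofactor myocardin, between 0 and 0.994 CPM.

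The promoters are shown first, since the CArG box is the element through which SRF reaches several of these genes. RefSeq sequence (GRCm38.p6) from 250 bases before to 50 bases after the start was at hand for 8 of the 10 genes, in 9 windows, and was searched on both strands for the CArG box, CC and GG around 6 bases that are each A or T, and for a CArG-like form with a single G or C among those 6. Boxes of either form stood in the windows of 2 of the 8 genes, Acta2 and Myl9, which carried 2 each. The windows of Cnn1, Tpm1, Tpm2, Cald1, Actn1 and Lmod1 held neither form, and Actg2 and Tagln were not searched here. Among 27025 genes with such a window, 11.3% held either form, 1.81% held the strict box and 0.932% had at least 2 boxes of either form in a window. In Acta2 (chr19:34255324-34255623, minus strand) both boxes were of the CArG-like form and began 84 and 34 bases before the start. In Myl9 (chr2:156775214-156775513, plus strand) a strict box began 161 bases and a CArG-like box 99 bases before the start. All these distances are counted from the start used for the RefSeq windows, which is not the gene boundary given below for Acta2 or Myl9. The windows are printed 5′ to 3′ with the boxes in capitals.
Acta2: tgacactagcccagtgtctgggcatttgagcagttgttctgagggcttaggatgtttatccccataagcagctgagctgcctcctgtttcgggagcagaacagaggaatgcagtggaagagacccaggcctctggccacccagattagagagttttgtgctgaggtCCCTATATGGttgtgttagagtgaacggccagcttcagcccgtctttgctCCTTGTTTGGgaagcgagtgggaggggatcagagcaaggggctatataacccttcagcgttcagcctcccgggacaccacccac
Myl9: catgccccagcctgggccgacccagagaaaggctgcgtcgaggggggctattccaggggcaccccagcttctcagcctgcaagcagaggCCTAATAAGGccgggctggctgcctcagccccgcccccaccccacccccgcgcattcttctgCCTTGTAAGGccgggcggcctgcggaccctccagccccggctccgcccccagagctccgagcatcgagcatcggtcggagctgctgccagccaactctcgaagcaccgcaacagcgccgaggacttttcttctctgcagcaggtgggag
A match of letters is a description of the sequence and does not show that SRF binds there.

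All 10 genes were detected in every library, and all 10 were among the 15179 genes that passed the filter on low counts. Per kilobase of exon, Actn1, which encodes a widely expressed alpha-actinin that cross-links actin filaments, had the highest level, at 58.8 ± 11.9 CPM per kilobase (SD, n = 12 libraries), and lay above the next gene in 12 of 12 libraries. Tpm1 followed at 27.8 ± 8.14 CPM per kilobase and was above Acta2 in 10 of 12. Acta2 (16.6 ± 15.5 CPM per kilobase), Tagln (16.5 ± 9.98) and Tpm2 (16.3 ± 5.91) did not differ beyond their spread, with Acta2 above Tagln and Tagln above Tpm2 in 6 of 12 libraries each. Cald1 (11.1 ± 6.13 CPM per kilobase) and Myl9 (8.05 ± 6.42) came next, and Myl9 was above Cnn1 in 12 of 12 libraries. Cnn1 (1.88 ± 0.951 CPM per kilobase), Actg2 (1.71 ± 1.56) and Lmod1 (0.996 ± 0.65) were lowest, with ranges that overlapped. The genes also differed in how far they moved between libraries. The highest CPM was 66.4 times the lowest for Acta2 and 33.6 times for Actg2, against 2.65 times for Tpm1 and 2.53 times for Actn1.

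**Figure D1:**
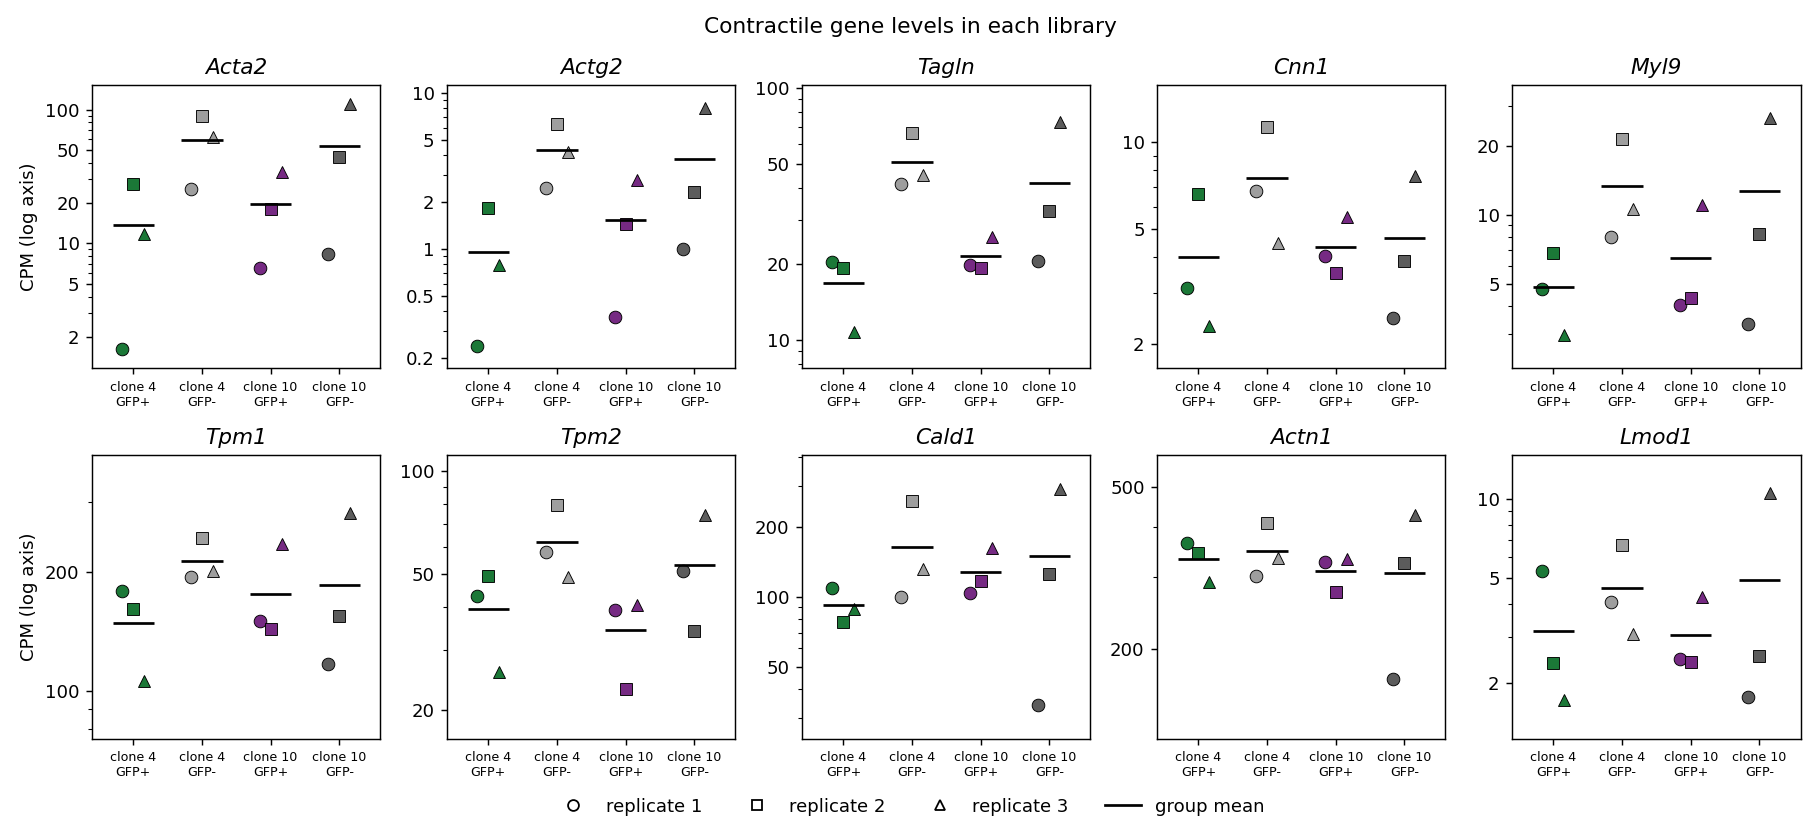
Level of each gene in CPM (log axis) in every library, by clone and gate, with a symbol for each replicate and a bar for the group mean (n = 3). In clone 4 the GFP-positive libraries of Actg2, Tagln, Myl9 and Tpm1 lie wholly below the GFP-negative ones, and the replicate 1 libraries of Acta2 and Actg2 are the lowest of their group in all 4 groups.

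The actins came lower in GFP-positive than in GFP-negative cells in each of the 6 pairs. The members were chosen with this contrast in view, so all changes between the gates are a description: they carry no p-value, and counts of calls stand only beside the share over all genes. Acta2 (ENSMUSG00000035783, mm10 chromosome 19, 34241090 to 34255336), the alpha-actin of vascular smooth muscle, had 1.63, 28.0 and 11.8 CPM in clone 4 GFP-positive replicates 1 to 3, against 25.3, 89.5 and 62.0 CPM in clone 4 GFP-negative replicates. The GFP-positive libraries of clone 10 gave 6.59, 18.2 and 33.9 CPM, against 8.33, 44.0 and 109 CPM in GFP-negative cells of that clone. Each GFP-positive library was thus below its partner, but the gates overlapped in both clones, since replicate 1 was low throughout and GFP-positive libraries of other replicates exceeded it. The log2 change averaged over both clones was -1.88 (SE 0.26) within pairs, to 0.272 times the GFP-negative level, and -1.78 (SE 0.67) when libraries were not paired.

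Actg2 (ENSMUSG00000059430, chromosome 6, 83512905 to 83536265), the gamma-actin of enteric smooth muscle, had the same pattern at a lower level. Levels were 0.24, 1.84 and 0.788 CPM in clone 4 GFP-positive cells, against 2.46, 6.36 and 4.21 CPM in clone 4 GFP-negative cells. Clone 10 GFP-positive cells had 0.366, 1.45 and 2.76 CPM, against 1.00, 2.33 and 8.07 CPM in GFP-negative cells of that clone. The gates did not overlap in clone 4 and did in clone 10, and the log2 change within pairs over both clones was -1.79 (SE 0.25). Of 1284 stretches of 50 bases in its longest coding transcript, 0 occurred in another gene, and in Acta2 the share was 0.352%, while the assignment of reads that map with mismatches was not assessed.

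Among the proteins that bind the thin filament, Tagln and Tpm2 were lower in GFP-positive cells in all 6 pairs. Tagln (ENSMUSG00000032085, chromosome 9, 45929628 to 45936058) encodes transgelin, also called SM22-alpha, an early marker of smooth muscle differentiation. It had 20.3, 19.3 and 10.8 CPM in clone 4 GFP-positive cells, against 41.6, 65.8 and 45.2 CPM in clone 4 GFP-negative cells, with no overlap. GFP-positive cells of clone 10 had 19.9, 19.2 and 25.6 CPM, against 20.5, 32.5 and 73.2 CPM in GFP-negative cells of that clone, where the gates overlapped because GFP-positive replicate 3 lay above GFP-negative replicate 1. Tagln varied little among GFP-positive libraries, at 16.8 ± 5.21 CPM in clone 4 and 21.6 ± 3.53 CPM in clone 10 (SD, n = 3 each), and its log2 change over both clones was -1.26 (SE 0.17) within pairs and -1.31 (SE 0.26) without pairing. In the authors' deposited table for clone 4, Tagln was 1 of 8 genes called changed, of 13352 with an adjusted p. Its log2 change there was -1.24 (SE 0.26), against -1.59 (SE 0.37) without pairing and -1.61 (SE 0.24) within pairs for clone 4 here. The authors' changes for clone 4 were smaller than those here for the actins too. They were -0.73 for Acta2 and -0.94 for Actg2, against -2.07 and -2.16 without pairing. The authors' table for clone 4 calls no other member. Their deposited table for clone 10, with 418 of 15479 genes called changed, calls none of the 10, and Lmod1 has no adjusted p there. Of the 50-base stretches of Tagln, 48.3% also occur in the overlapping gene models Gm48529 and Pcsk7, so its count is less certain than those of the other members.

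The tropomyosins lie along actin filaments and govern the access of myosin and other proteins to them. Tpm2 (ENSMUSG00000028464, chromosome 4, 43514711 to 43523765) had 43.2, 49.4 and 25.9 CPM in clone 4 GFP-positive cells, against 57.9, 79.6 and 49.1 CPM in clone 4 GFP-negative cells. The GFP-positive libraries of clone 10 gave 39.3, 23.1 and 40.6 CPM, against 51.0, 34.0 and 74.3 CPM in GFP-negative cells of that clone. The gates overlapped in both clones, narrowly in clone 4, but the 6 differences within pairs lay close together, between -0.90 and -0.49 on the log2 scale, with a mean of -0.69 (SE 0.09). Tpm1 (ENSMUSG00000032366, chromosome 9, 67022590 to 67049406) stood at 179, 161 and 106 CPM in clone 4 GFP-positive cells, against 194, 244 and 201 CPM in clone 4 GFP-negative cells, with no overlap. Clone 10 GFP-positive cells had 150, 143 and 235 CPM, against 117, 155 and 282 CPM in GFP-negative cells of that clone, which overlapped, and the log2 change over both clones was -0.33 (SE 0.10) within pairs.

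Myl9 (ENSMUSG00000067818, chromosome 2, 156775420 to 156781658), the regulatory light chain of smooth muscle myosin, had 4.76, 6.83 and 2.98 CPM in clone 4 GFP-positive cells, against 8.02, 21.6 and 10.6 CPM in clone 4 GFP-negative cells. GFP-positive cells of clone 10 had 4.03, 4.31 and 11.1 CPM, against 3.32, 8.25 and 26.5 CPM in GFP-negative cells of that clone. The gates did not overlap in clone 4 and did in clone 10, where the replicate 1 pair differed by -0.02 on the log2 scale after normalization while its plain CPM was higher in GFP-positive cells. The log2 change over both clones was -1.12 (SE 0.19) within pairs.

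Cnn1 and Cald1 encode calponin and caldesmon, thin-filament proteins that inhibit the ATPase of actomyosin. Cnn1 (ENSMUSG00000001349, chromosome 9, 22099281 to 22109630) had 3.13, 6.63 and 2.31 CPM in clone 4 GFP-positive cells, against 6.79, 11.3 and 4.49 CPM in clone 4 GFP-negative cells. The GFP-positive libraries of clone 10 gave 4.03, 3.52 and 5.52 CPM, against 2.47, 3.89 and 7.64 CPM in GFP-negative cells of that clone. The gates overlapped in both clones and 5 of 6 pairs were lower, with a log2 change of -0.93 (SE 0.23) within the pairs of clone 4 and -0.12 (SE 0.23) within those of clone 10. Cald1 (ENSMUSG00000029761, chromosome 6, 34598500 to 34775473) had 109, 78.0 and 88.7 CPM in clone 4 GFP-positive cells, against 99.8, 260 and 132 CPM in clone 4 GFP-negative cells. Clone 10 GFP-positive cells had 104, 117 and 163 CPM, against 34.3, 125 and 292 CPM in GFP-negative cells of that clone. Both replicate 1 pairs were higher in GFP-positive cells and the other 4 were lower, so the log2 change within pairs over both clones, -0.32, came with an SE of 0.30.

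Lmod1 and Actn1 also overlapped between the gates in both clones, and each was lower in 4 of 6 pairs. Lmod1 (ENSMUSG00000048096, chromosome 1, 135324807 to 135368065) encodes leiomodin, which nucleates actin filaments in smooth muscle, and had 5.34, 2.37 and 1.72 CPM in clone 4 GFP-positive cells, against 4.06, 6.67 and 3.08 CPM in clone 4 GFP-negative cells. GFP-positive cells of clone 10 had 2.46, 2.41 and 4.24 CPM, against 1.77, 2.54 and 10.5 CPM in GFP-negative cells of that clone. Its log2 change within pairs was -0.55 (SE 0.28), and both replicate 1 pairs were the exceptions. Actn1 (ENSMUSG00000015143, chromosome 12, 80167542 to 80260371) had 333 ± 36.6 CPM in clone 4 GFP-positive cells against 348 ± 54.1 CPM in clone 4 GFP-negative cells, and 312 ± 31.1 CPM in clone 10 GFP-positive cells against 308 ± 130 CPM in clone 10 GFP-negative cells (SD, n = 3 each). Its log2 change within pairs was -0.02 (SE 0.14), the smallest of the 10.

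**Figure D2:**
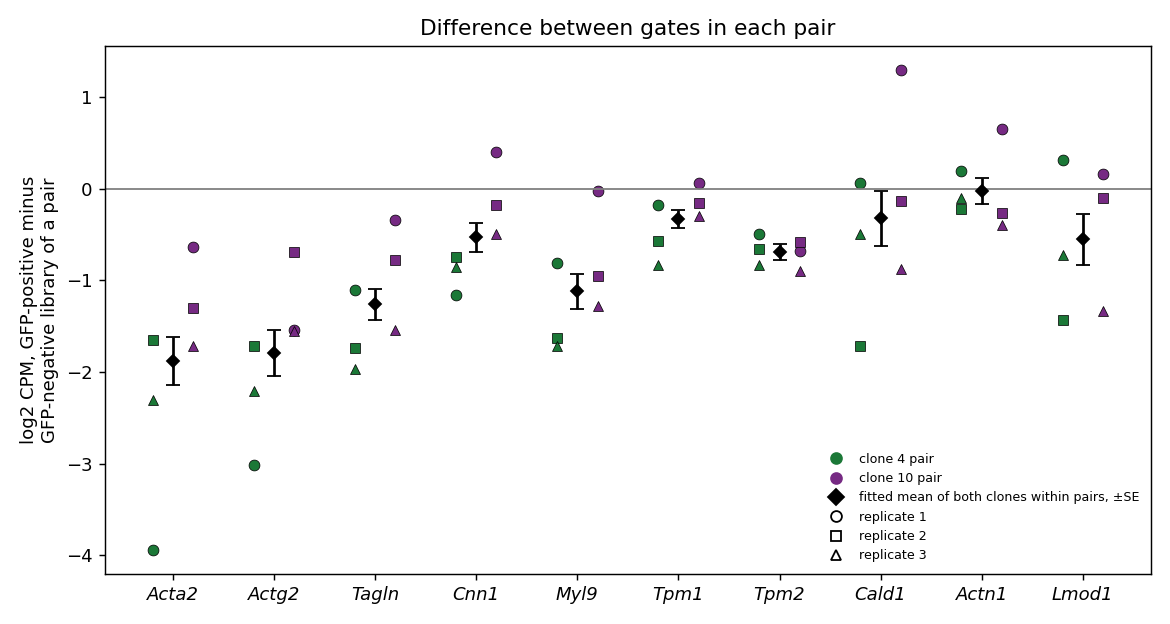
Difference in log2 CPM between the GFP-positive and the GFP-negative library of each of the 6 pairs, by gene, clone and replicate, with the fitted mean of both clones within pairs and its SE (black diamonds). All 6 differences lie below 0 for Acta2, Actg2, Tagln, Myl9 and Tpm2, and those of Actn1 spread around 0 with a fitted mean of -0.02.

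Over the 10 genes and 6 pairs, 52 of 60 differences were below 0. The 8 exceptions all fell in the replicate 1 pairs, where 7 genes were lower in clone 4 and 5 in clone 10, the pair that holds the shallowest library. Lower in all 6 pairs were 5 of 10 genes, which holds for 7.29% of all genes tested, and in plain CPM 4 of 10, against 6.79% of all genes. In clone 4 the gates did not overlap for 4 of 10, with GFP-positive cells lower, against 2.04% of all genes, and in clone 10 for 0 of 10, against 3.59%. The median log2 change over both clones was -0.62 within pairs, against 0 for all genes tested. Since this contrast was used in choosing the genes, these counts are no evidence about them.

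The counts of calls between the gates are given in the same way and are likewise no evidence about the genes. By edgeR's quasi-likelihood test without pairing, at a Benjamini-Hochberg adjusted p under 0.05, 0 of 10 genes were called lower over both clones, against 0.00659% of all genes. At an unadjusted p under 0.05 there were 5 of 10, against 6.77%, and DESeq2 called 1, against 1.88%, while limma-voom called 0, against 0.00659%. The shares in the sentence before this count both directions, in which the adjusted edgeR share was 0.158%. In either clone alone edgeR without pairing called 0 of 10, and 0% of all genes lower. Within pairs, edgeR called 5 of 10 lower, against 0.85% of all genes, namely Acta2, Actg2, Tagln, Myl9 and Tpm2. For clone 4 alone 0 of 10 were called within pairs, against 0.0461%, and for clone 10 alone 1, Tpm2, against 0.731%. For several genes the unpaired values of clone 10 depended on GFP-negative replicate 3. Without that library the unpaired log2 change for clone 10 was -0.58 for Acta2 (-1.49 with it), -0.33 for Actg2 (-1.36), -0.04 for Myl9 (-1.03), 0.17 for Tpm1 (-0.16) and 0.29 for Lmod1 (-0.76). Tagln stayed at or below -0.49 and Tpm2 at or below -0.54, whichever library was left out. Within pairs, whichever pair was left out, the clone 10 change stayed at or below -1.01 for Acta2, -1.06 for Actg2 and -0.54 for Myl9. It reached -0.05 for Tpm1 and 0.02 for Lmod1.

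Markers of fibroblasts moved between the gates beside these genes. The lists here and below were also chosen with earlier results known, and most genes named have the smallest p within pairs. Their changes and adjusted p-values between the gates are thus a description and no independent test. Of 25 fibroblast genes, such as those for collagens, 23 were tested, and Lum and Fap were each at 0 in 4 libraries. Their summed level was 1665 to 2664 CPM in clone 4 GFP-positive cells against 2088 to 4083 CPM in clone 4 GFP-negative cells, and 1923 to 3187 CPM in clone 10 GFP-positive cells against 1292 to 4861 CPM in clone 10 GFP-negative cells. Averaged over the list, the log2 difference in the pairs of replicates 1 to 3 was -1.0, -1.13 and -1.09 in clone 4 and 0.88, -0.77 and -0.76 in clone 10, beside -1.01, -1.21 and -1.20 and -0.07, -0.51 and -1.03 for the 10 contractile genes. Both averages were thus least negative or above 0 in the replicate 1 pair of clone 10. Within pairs 7 of 23 fibroblast markers fell over both clones and 0 rose, with a median log2 change of -0.82, among them Postn (periostin; -1.58, SE 0.19, adjusted p = 0.00362 by edgeR), S100a4 (-1.86, SE 0.26, adjusted p = 0.00781), Timp1 (-0.87, SE 0.09, adjusted p = 0.00167) and the intermediate filament gene Vim (-1.05, SE 0.16, adjusted p = 0.0128). Of all genes tested, edgeR called 0.85% lower and 2.51% higher within pairs over both clones, and each list's calls stand beside these shares. Without pairing 0 of 23 passed by edgeR, and 5 were lower at an unadjusted p under 0.05, against 6.77% of all genes in either direction. For unadjusted counts within pairs no share over all genes was computed, so such counts of the lists cannot be set against it. Fewer cells of a type and less RNA per cell cannot be told apart in these bulk libraries, and the part of fibroblast-like cells in the changes of the contractile genes was not tested.

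Acta2 varied over the 12 libraries together with genes of the extracellular matrix and of mesenchymal cells, led by Postn. Among 12159 candidate genes outside the 10, high Pearson correlations of log2 CPM with Acta2 were those of Postn (r = 0.955), Cav1 (0.932), S100a4 (0.931), Thbs2 (0.902), Cd44 (0.896), Dcn (0.895) and Cxcl12 (0.895). The Spearman correlations of these 7 ran from 0.874 to 0.979, and the correlation after subtracting each group's mean from 0.863 to 0.969, so the likeness was also present among replicates within groups. Of the contractile genes, Actg2 (r = 0.969) correlated with Acta2 above every other gene tested, followed by Myl9 (0.812), Tagln (0.725) and Cnn1 (0.712), while Tpm2 (0.413), Actn1 (0.419) and Lmod1 (0.368) were the lowest. The 45 pairs of contractile genes had correlations between 0.161 and 0.969 with a median of 0.674, and the median gene tested had -0.0207 with Acta2. These are descriptions over 12 libraries that share 6 pairs and the passage differences between replicates.

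**Figure D3:**
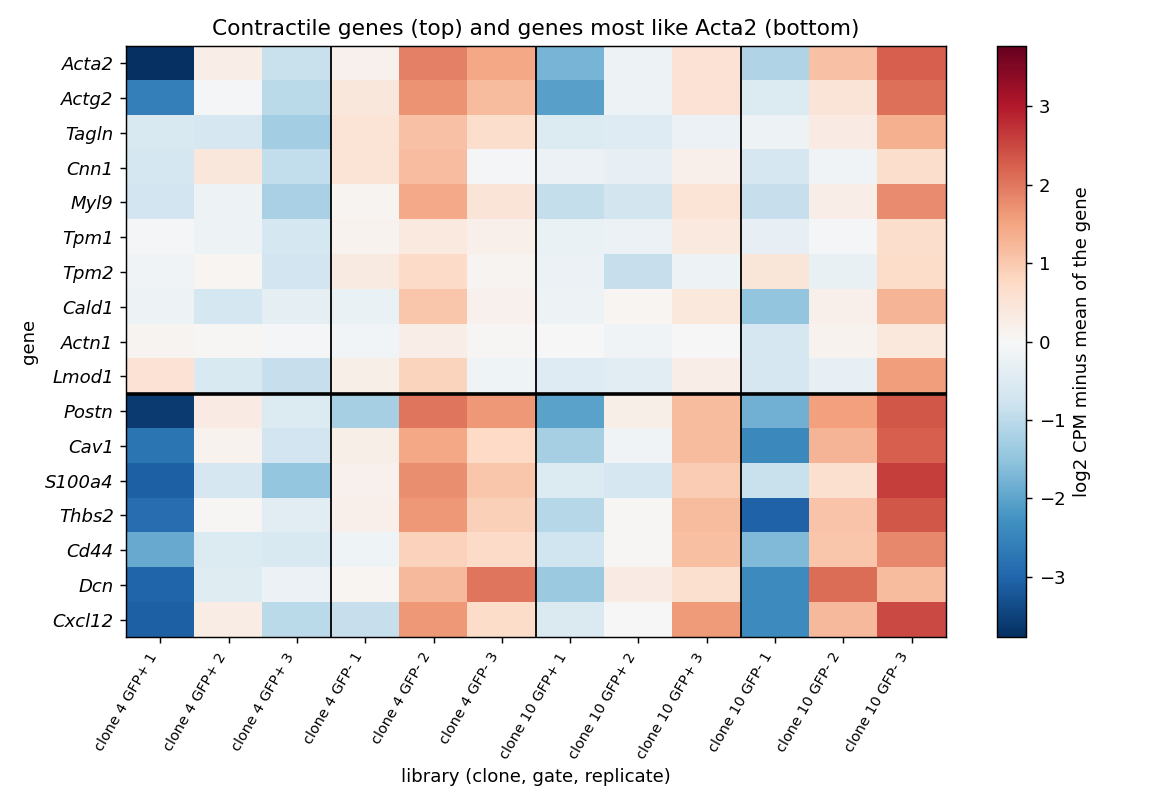
Log2 CPM minus the gene's mean over the 12 libraries (colour scale) for the 10 contractile genes above the line and 7 genes highly correlated with Acta2 below it. Acta2, Actg2 and the lower 7 genes are all below their means in both replicate 1 libraries of clone 10 and in clone 4 GFP-positive replicate 1, and all above them in the GFP-negative libraries of replicates 2 and 3, while Actn1 lies between -0.64 and 0.39.

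In each of the 4 groups the replicate 1 library had the lowest Acta2 and Actg2 levels, and these libraries were also of the earliest passages. Such an order in all 4 groups held for 2 of the 10 genes, against 10.3% of all genes tested. Myl9 and Cald1 were lowest in replicate 1 in 3 groups and Tpm2 in 0. Passage goes with replicate number and, within most pairs, with the gate, and its part in these levels was not tested apart from them.

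Further genes of smooth muscle were followed as a list that holds none of the 10. Of 15 further smooth muscle markers 13 were tested, with Kcnmb1 at 0 in 7 libraries and Pln at 0 in 3. Within pairs 0 of 13 fell over both clones and 1 rose, Pdlim3, which encodes a PDZ-LIM protein that binds alpha-actinin (log2 change 1.23, SE 0.23, adjusted p = 0.0274 by edgeR), and the median log2 change was 0.27. At an unadjusted p under 0.05, 4 were higher and 0 lower. Their summed level overlapped between the gates, at 199.5 to 413.7 CPM in clone 4 GFP-positive cells against 234.1 to 365.4 CPM in clone 4 GFP-negative cells, and 220.3 to 351.3 CPM in clone 10 GFP-positive cells against 181.2 to 296.6 CPM in clone 10 GFP-negative cells. Desmin (Des), a muscle intermediate filament, was between 9.29 and 73 CPM. Of 19 striated muscle genes 16 were tested and 0 passed within pairs by edgeR, with 2 lower and 3 higher at an unadjusted p under 0.05. The skeletal actin Acta1 had a log2 change of -0.98 (SE 0.26, adjusted p = 0.079), and Lmod2 was at 0 in 10 libraries.

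Among 20 genes of the non-muscle actin and myosin apparatus, 1 fell within pairs, Cnn2, a calponin of non-muscle cells (log2 change -0.59, SE 0.09, adjusted p = 0.0131 by edgeR). The cytoplasmic actin Actg1 (-0.43, SE 0.11) and the tropomyosin Tpm4 (-0.52, SE 0.12) did not pass, and the median of the list was -0.26. At an unadjusted p under 0.05, 10 of the 20 were lower and 1 was higher, and the summed CPM of the list was lower in GFP-positive cells in 6 of 6 pairs. Of 10 genes for SRF and its cofactors 0 passed by edgeR, with 2 higher at an unadjusted p under 0.05. These were Mkl2 (log2 change 0.33, SE 0.13) and Myocd (1.46, SE 0.61), the latter at 0 in 1 library and at most at 0.994 CPM. Srf itself was at 40.1 to 56.5 CPM over the libraries, and Mkl1, a myocardin-related factor that is released by actin polymerization, was at 21.9 to 43.6 CPM. Of 16 further targets of SRF with its myocardin-related cofactors or of YAP, 1 fell, Ankrd1 (-1.22, SE 0.26, adjusted p = 0.0455), with 5 lower at an unadjusted p under 0.05 and a list median of -0.25.

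TGF-beta is a classic inducer of Acta2 and Tagln in mesenchymal cells. Of 12 genes of its pathway 2 fell within pairs and 0 rose: Tgfb1, a ligand (log2 change -0.55, SE 0.11, adjusted p = 0.0375 by edgeR), and Smad7, the inhibitory Smad that the pathway induces (-0.43, SE 0.10, adjusted p = 0.0492). The ligand gene Tgfb3 (-1.09, SE 0.32) and the receptor gene Tgfbr1 (0.59, SE 0.15) did not pass, the list's median was -0.12, and at an unadjusted p under 0.05 there were 3 lower and 2 higher. Of 14 genes that set the phosphorylation of myosin light chain, from its kinase and phosphatase to regulators upstream, 1 fell, the GTPase gene Rhoc (-0.68, SE 0.11, adjusted p = 0.0148), and the median was 0.13, with 3 lower and 3 higher at an unadjusted p under 0.05. Without pairing, 0 genes of any list passed between the gates by edgeR, and at an unadjusted p under 0.05 the TGF-beta list had 0 and the SRF and YAP targets 2. Of the 10 pluripotency markers 0 passed within pairs over both clones, with 5 lower at an unadjusted p under 0.05, and in clone 10 alone Lin28a fell (-1.04, SE 0.17, adjusted p = 0.0143). Their summed CPM was lower in GFP-positive cells in 6 of 6 pairs. In the replicate 3 pair of clone 4 the sums were close, at 6960 against 6978 CPM. The normalized log2 difference averaged over the list was 0.08 in that pair and -0.01 in the replicate 2 pair of clone 4. Of 5 endothelial markers 4 were tested, and Tie1, an endothelial receptor tyrosine kinase, rose (2.70, SE 0.40, adjusted p = 0.0104).

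The clones were then compared with each other, a contrast on which the choice of genes did not rest. In GFP-positive cells, 0 of 10 contractile genes were called between clone 10 and clone 4 by edgeR, against 1.11% of all genes, and 0 of 10 had an unadjusted p under 0.05, against 14.3%. DESeq2 also called 0 of 10, against 5.86%, as did limma-voom, against 2.74%. Acta2 had 19.6 ± 13.7 CPM in clone 10 and 13.8 ± 13.3 CPM in clone 4 (SD, n = 3 each), a log2 difference of 0.53 (95% confidence interval -1.49 to 2.55, adjusted p = 0.863 by edgeR). For Actg2 the difference was 0.70 (-1.16 to 2.56, adjusted p = 0.791), for Tagln 0.41 (-0.38 to 1.19, adjusted p = 0.686) and for Tpm2 -0.17 (-0.84 to 0.51, adjusted p = 0.87). The libraries of the clones overlapped for Acta2, Actg2, Tagln and Tpm2, and the intervals of both actins reach past 2 on the log2 scale. The GFP-positive libraries of clone 10 were labelled passages 12, 18 and 20 and those of clone 4 passages 11, 14 and 16, so passage goes with the clone. With passage as a covariate the difference turned to -0.62 for Acta2 and -0.53 for Actg2. The median over the 10 genes was 0.34, against 0 for all genes tested. Of the fibroblast markers, Vim was higher in clone 10 GFP-positive cells (log2 difference 1.80, SE 0.32, adjusted p = 0.0314), as was Fhl1 among the SRF and YAP targets (1.68, SE 0.31, adjusted p = 0.0329).

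In GFP-negative cells 0 of 10 were called between the clones by edgeR, against 0.0461% of all genes, and 0 of 10 had an unadjusted p under 0.05, against 11.9%. DESeq2 (2.79% of all genes) and limma-voom (0.0725%) called 0 of 10 as well. Acta2 had 53.6 ± 50.8 CPM in clone 10 and 58.9 ± 32.3 CPM in clone 4 (SD, n = 3 each), with a log2 difference of -0.05 (interval -2.04 to 1.95, adjusted p = 0.988 by edgeR). The differences were -0.09 for Actg2 (-1.88 to 1.69, adjusted p = 0.969), -0.16 for Tagln (-0.94 to 0.62, adjusted p = 0.885), -0.55 for Cnn1 (-1.61 to 0.50, adjusted p = 0.663) and 0.21 for Lmod1 (-1.12 to 1.53, adjusted p = 0.914). The SD among GFP-negative libraries of clone 10 was the largest of the 4 groups for every contractile gene but Cnn1, with Acta2 between 8.33 and 109 CPM. The median over the 10 was -0.06, against 0.04 for all genes.

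**Figure D4:**
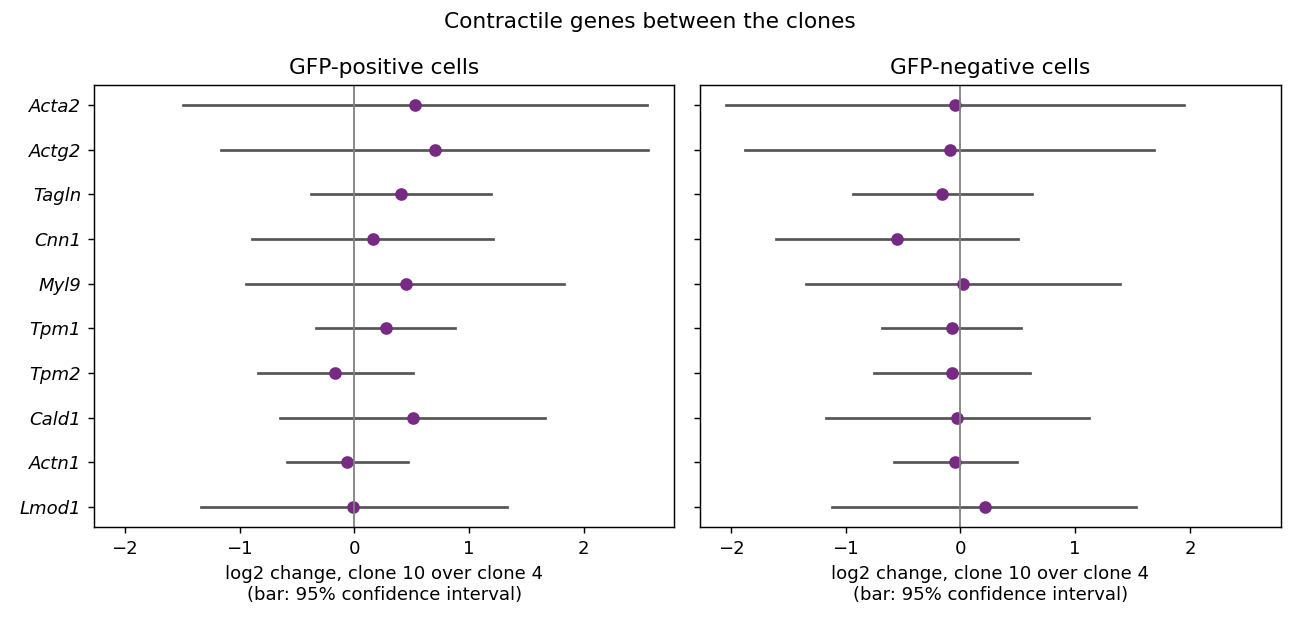
Log2 change of each contractile gene in clone 10 over clone 4, with its 95% confidence interval, in GFP-positive cells (left) and GFP-negative cells (right). Every interval includes 0, and those of Acta2 and Actg2 are the widest, from -1.49 to 2.55 for Acta2 in GFP-positive cells.

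The change between the gates was also set side by side in the clones, as the change in clone 10 minus that in clone 4. These differences are built from the changes between the gates that were in view when the genes were chosen, so they too are given as a description. By edgeR 0 of 10 genes were called, with or without pairing, and 0% of all genes tested. At an unadjusted p under 0.05 without pairing there were 0 of 10, against 0.922% of all genes. Within pairs Acta2 and Cnn1 had an unadjusted p under 0.05 by edgeR, for which no share over all genes was computed. The changes of Acta2 within pairs were -1.26 (SE 0.37) in clone 10 and -2.50 (SE 0.38) in clone 4, a difference of 1.24 (SE 0.52). Cnn1 differed by 0.80 (SE 0.32), Actg2 by 1.05 (SE 0.49) and Tagln by 0.71 (SE 0.34), each with the more negative change in clone 4. For Tpm2 the changes were -0.72 (SE 0.13) in clone 10 and -0.66 (SE 0.13) in clone 4, a difference of -0.06 (SE 0.18). Without pairing the SEs were larger, at 1.30 for Acta2, 1.18 for Actg2 and 0.51 for Tagln.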

How the data were processed

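The 12 libraries were sequenced from total RNA with a TruSeq v2 kit, per the labels. The submitters' processing notes name STAR 2.3.0e, HTSeq 0.6.0, DESeq2, DESeq and mm10. Which annotation release and strand setting were used is not given in the sources used here. The authors deposited unnormalized read counts per gene and, per the file headers, a table per clone with a normalized signal, log2 fold changes, a score (the change over its error) and p-values. The table lists 22753 genes and 7574 failed the filter on low counts (edgeR's default with 10 counts in 3 libraries and 15 in total).

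Tests of the counts used R 4.3.3 and edgeR 4.0.16, by robust quasi-likelihood after TMM scaling. All 12 libraries entered a fit with a term per group and 8 residual degrees of freedom, and p-values were adjusted over all 15179 genes by the Benjamini-Hochberg method. A further fit held the pair of the same clone and replicate number as a block (4 residual degrees of freedom). Libraries were paired by clone and replicate number. Deviations from group means correlated at 0.548 to 0.822 in same-numbered pairs of a clone and at -0.541 to -0.228 in the others. Deviations in a group of 3 libraries cancel out, so negative values partly follow from positive ones. Same-numbered libraries of a gate ran from -0.425 to 0.588 between the clones. Clone 4 GFP-positive replicate 3 and clone 10 GFP-positive replicate 2 correlated at 0.683. The libraries of most pairs were labelled with different passages, so the pairing is an assumption. The coefficient of variation was 0.389 without and 0.175 with the block. Log2 CPM values used a prior count of 2. Exon lengths came from GENCODE M21. Scripts were tested on simulated data. Alternatives were DESeq2 1.42.0, limma-voom (limma 3.58.1), other scalings and filters, passage as a covariate, and leaving out each library or pair.

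The 10 genes and the 10 lists beside them were chosen with earlier results of these data known. Of each list, up to 4 genes with the smallest p within pairs were named, and any called between the clones. Of the 8 genes most correlated with Acta2, 7 are given and the other is not reported here. The ranges of Myh11, Des, Srf and Mkl1 and the genes at 0 were added after their values were seen.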

Additional observations from a re-analysis of the deposited data

How the results depend on the processing

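The count of contractile genes called between the gates depended on the test, while the direction of those called was always lower in GFP-positive cells. Over both clones it was 0 in the planned test, 1 without the filter on low counts and 1 by DESeq2 (Tagln in each), 2 with passage as a covariate (Actg2 and Tagln), 5 with the replicate block and 6 by DESeq2 with the block. Of all genes, in either direction, 0.348% were called without the filter, 1.88% by DESeq2, 0.909% with passage, 3.36% with the block and 9.5% by DESeq2 with the block. Leaving out a library or a pair gave 0 to 7, with 3 within pairs when the replicate 3 pair of clone 10 was left out and 7 without its replicate 1 pair. For clone 4 it was 1 by DESeq2 (0.217% of all genes), 5 by DESeq2 with the block (1.2%) and 0 to 6 without a library or pair, the 6 without the replicate 1 pair of clone 10. For clone 10 it was 1 with the block (4.22% of all genes), 4 by DESeq2 with the block (10.4%) and 0 to 3 without a library or pair. The calls over all genes moved with what was left out as well. Within pairs over both clones, in either direction, 510 of 15179 genes were called with all pairs. Without the replicate 1 or the replicate 2 pair of clone 4 these were 125 of 15354 and 257 of 15432. For clone 10 the same settings gave 641, 560 and 432. For the other settings without a library or pair no share over all genes is given here, so their counts cannot be set against one. The counts of contractile genes under all these settings are thus no evidence about them. Of 800 values of the members' change between the gates under the alternatives, 774 were below 0. From the value of the unpaired fit, 781 lay within 1 SD of the differences in the pairs. That SD was wide, at 1.18 for Acta2 in clone 4 and 1.1 for Cald1 in clone 10, so a change of sign can lie within it. Each pair lies within a clone, so the pair could not serve as a block between the clones. A term for replicate number, shared by both clones, was used there instead and changed no call. Between the clones 0 contractile genes were called under any alternative. Some small clone differences turned in sign, none of them called. In GFP-negative cells Lmod1 was -0.03 by limma-voom and -0.12 with passage. In GFP-positive cells passage gave -0.62 for Acta2 and -0.53 for Actg2. With a single library left out, the GFP-negative values ran from -0.96 to 0.45 for Acta2 and -1.13 to 0.32 for Actg2. They ran from -0.70 to 0.13 for Tagln and -0.84 to 0.56 for Lmod1. The GFP-positive values ran from -0.06 to 1.47 for Acta2 and -0.37 to 0.02 for Tpm2. Clone comparisons were not run with a pair left out. The clones' difference in change, without pairing and without a library, ran from -0.01 to 1.52 for Acta2 and -0.34 to 0.11 for Tpm2. With the replicate block and without a pair, it ran from 0.71 to 1.76 for Acta2 and -0.15 to 0.03 for Tpm2. The causes were not tested. Counts were as low as 5 for Actg2 and 23 for Lmod1, and with 3 libraries a group the precision of the clone comparisons is that of the intervals given with them.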
